A study of Mus musculus with 3 samples.

Results

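The CXCR3 chemokines Cxcl9, Cxcl10 and Cxcl11 and their receptor Cxcr3 were followed across the cells of 4T1 tumours. The 4 genes were taken by symbol from the 55357 features of the deposited count matrices, and all 4 were present. The ligands are small secreted proteins that interferons, above all interferon gamma, induce in myeloid, stromal and tumour cells. CXCR3 is the G protein-coupled receptor that activated type 1 T cells and natural killer (NK) cells use to follow them into inflamed tissue, and T cells that arrive can release more interferon gamma. CXCL10 also answers to type I interferon and TNF, while CXCL9 depends mostly on interferon gamma.

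4T1 is a mouse mammary carcinoma line. Tumours were grown in female mice of 8 to 10 weeks from cells labelled 4T1-sgVC (genotype WT) or 4T1-sgCPT1A (genotype given as a CPT1A knockdown), and the mice were kept for 8 days. CPT1A is the enzyme that controls how fast long-chain fatty acids pass into mitochondria to be burned, and the series asks how the cells of the tumour differ without it. Whole tumours were dissociated with papain and DNase, and no sort was described. The labels give neither the number of mice behind a library nor whether a line is 1 clone. With 1 analysed library in each group, no test was possible. Values of the sgVC library are given first throughout, intervals are 95% and cover counting error only, and a ratio is sgCPT1A over sgVC on the log2 scale. Levels are in CPM, the unique molecular identifiers (UMIs) of a gene per 1000000 UMIs of the cells summed. For another sample with the sgCPT1A label no separate file was used here, and it is not known whether its cells are within the sgCPT1A matrix.

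The libraries held 9890 and 7198 barcodes with a median of 10809 and 2786 UMIs, and 9319 and 6743 cells were kept. Cpt1a itself stood at 17.4 CPM (16.6 to 18.1) in 4411 tumour-like cells of sgVC and at 28.7 CPM (18.0 to 43.4; 22 UMIs) in the 39 of sgCPT1A, so the level went against the label, although a 3′ tag can lie outside the altered stretch. Of those 39 cells, 30 lay in a cluster led by Krt19 and Ptn that held 13 sgVC cells, and whether they descend from the injected line was not tested. Cpt1a was also higher in sgCPT1A in each of the other 6 classes compared, for example at 7.88 and 15.9 CPM in neutrophil-like cells. The names sgVC and sgCPT1A below mean the libraries so labelled. The libraries shared 18 barcode sequences. Cells were grouped by clustering without the 4 genes, and clusters were named from marker genes. All markers of the T, neutrophil, conventional dendritic, macrophage, fibroblast and pericyte lists stood at least 2-fold over the median class in their class in both libraries, as did 5 of 6 NK markers and 4 of 5 tumour markers in sgVC and 5 of 5 in sgCPT1A. Mixed cells were removed from sgVC alone (291 called doublets), since the caller marked 1 cell in sgCPT1A.

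The ligand genes lie side by side on mouse chromosome 5 (GRCm38, minus strand), Cxcl9 at chr5:92321347-92328079, Cxcl10 at chr5:92346638-92348889 and Cxcl11 at chr5:92359544-92365485, within 44.1 kb. The annotation lists Cxcl11 as a polymorphic pseudogene, a gene that is intact in some strains and not in others. Cxcl10 and Cxcl11 lie inside Art3, a gene on the opposite strand with 100 and 279 UMIs in all kept cells, against 49293 and 40377 of Cxcl10. Cxcr3 is on the X chromosome, at chrX:101731535-101734269 on the minus strand. The stretches of 250 bases before the starts of Cxcl9 (chr5:92328080-92328329) and Cxcl10 (chr5:92348890-92349139) are shown for their matches to elements that known factors bind. Both match an element of NF-kB factors, and Cxcl10 alone also matches one of interferon factors. The levels of genes of both routes are given below. The stretches are from RefSeq on GRCm38.p6, minus strand, 5′ to 3′, and capitals mark the matches.
Cxcl9: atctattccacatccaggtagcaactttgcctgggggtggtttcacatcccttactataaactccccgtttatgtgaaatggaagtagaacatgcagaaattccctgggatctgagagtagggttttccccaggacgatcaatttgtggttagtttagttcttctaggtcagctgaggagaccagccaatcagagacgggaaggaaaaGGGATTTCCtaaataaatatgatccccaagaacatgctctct
Cxcl10: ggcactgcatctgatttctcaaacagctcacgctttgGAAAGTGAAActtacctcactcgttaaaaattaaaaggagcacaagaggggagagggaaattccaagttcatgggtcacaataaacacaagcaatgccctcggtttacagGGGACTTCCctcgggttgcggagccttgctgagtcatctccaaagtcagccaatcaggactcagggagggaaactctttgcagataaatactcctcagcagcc
In Cxcl10 the first capitals, GAAAGTGAAA, match the core of the interferon-stimulated response element (searched as GAAA, any 2 bases and GAAA) and begin 213 bases before the start. The second, GGGACTTCC, match the kB element (GGGANTTCC) and begin 103 bases before it. The Cxcl9 stretch held 1 kB match, GGGATTTCC, 42 bases before the start. Neither held TTCNNNGAA, the core of the gamma-activated site, and the stretch before Cxcr3 held no match to any of these 3 motifs. Both strands were searched, over 250 bases before to 50 after the start, and no match overlapped another. Only these letters were searched, so other forms of the elements would not be found or marked. Of 32851 mouse promoters of that length, 3.44% held the response element core, 8.30% TTCNNNGAA and 1.68% GGGANTTCC. A match describes letters and not binding, and the table gave promoters for 3 of the 4 genes, Cxcl11 being the other.

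In the sgVC tumour the ligand transcripts lay mainly in monocyte/macrophage-like and tumour-like cells, and for Cxcl9 and Cxcl10 also in fibroblast-like cells. In the sgCPT1A tumour Cxcl10 and Cxcl11 lay mainly in neutrophil-like cells. Cxcl9 lay mainly in neutrophil-like and fibroblast-like cells there, in shares close to their shares of all UMIs. Cxcl10 was the most counted ligand in both tumours. A UMI stands for the 3′ end of 1 transcript, so these counts were not divided by length, and how efficiently each gene is captured is unknown.

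Cxcl9 had 9429 and 3910 UMIs. In sgVC 40.7% of them were in monocyte/macrophage-like cells, 22.8% in tumour-like, 19.9% in fibroblast-like, 9.82% in pericyte or smooth muscle-like, 6.08% in dendritic-like and 0.742% in neutrophil-like cells. In sgCPT1A neutrophil-like cells held 39.9%, fibroblast-like cells 35.0% and pericyte or smooth muscle-like cells 10.2%. The neutrophil-like and fibroblast-like shares were close to the 39.3% and 35.6% of all sgCPT1A UMIs in those classes. The pericyte or smooth muscle-like share was above the 3.68% of all UMIs there, and dendritic-like cells held 8.39% beside 2.09%. Stromal cells, those of connective tissue and vessel walls, thus held a large part of Cxcl9 in both tumours.

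Cxcl10 had 49293 and 40377 UMIs. Monocyte/macrophage-like cells held 36.8% in sgVC, tumour-like cells 30.7%, fibroblast-like cells 16.7%, T-like cells 4.21% and neutrophil-like cells 3.91%. In sgCPT1A neutrophil-like cells held 64.1% and fibroblast-like cells 18.3%, the latter below their 35.6% of all UMIs. Cxcl11, with 2934 and 4558 UMIs, was the most concentrated ligand: 55.7% lay in monocyte/macrophage-like and 19.8% in tumour-like cells of sgVC, and 79.5% in neutrophil-like and 13.5% in monocyte/macrophage-like cells of sgCPT1A.

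These shares follow the number of cells and their depth as well as the level. Tumour-like cells held 82.7% of all sgVC UMIs, and neutrophil-like cells 39.3% of all sgCPT1A UMIs. In CPM the tumour-like cells of sgVC were therefore a dilute source, at 17.7 CPM of Cxcl9, 125 CPM of Cxcl10 and 4.78 CPM of Cxcl11. Cxcr3, with 275 and 285 UMIs, lay in T-like cells, 81.5% in sgVC and 83.2% in sgCPT1A.

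**Figure D1:**
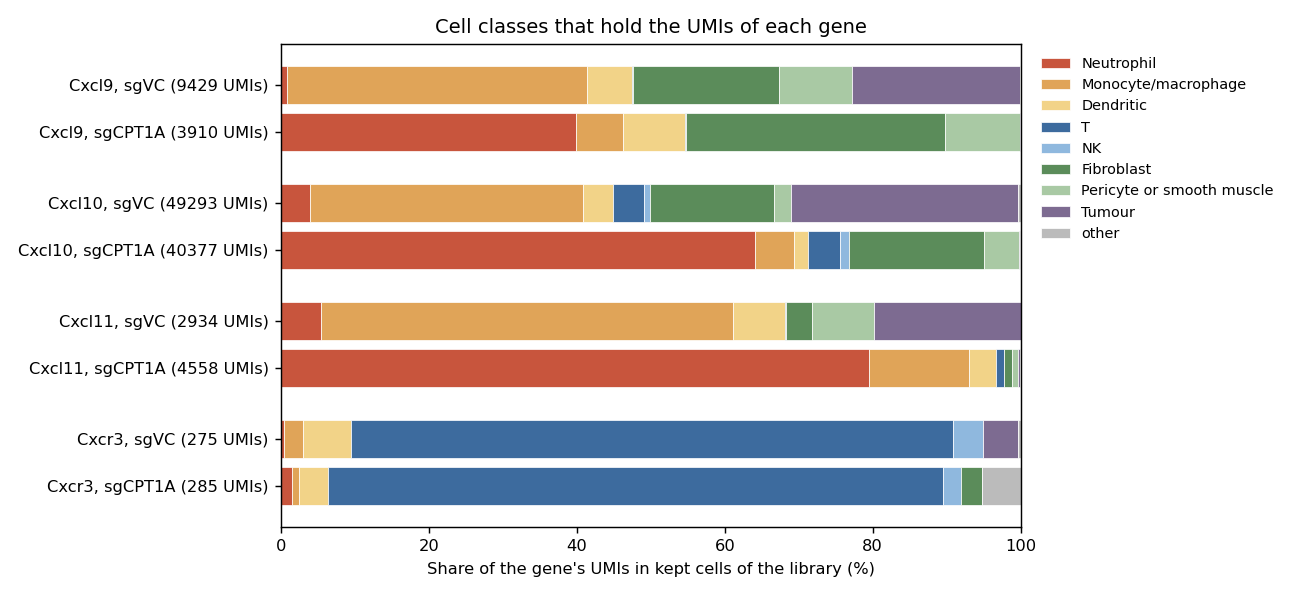
Share of the UMIs of each gene (horizontal axis, percent of the gene's UMIs in kept cells) by cell class, 1 bar per gene and library with the number of UMIs. The neutrophil-like segment is small in all sgVC bars and is the longest in the sgCPT1A bars of the 3 ligands, while T-like cells fill over 80% of both Cxcr3 bars.

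Neutrophil-like cells held all 3 ligands at higher levels in sgCPT1A. Neutrophils are short-lived phagocytes, and 1797 and 5124 were kept. Cxcl9 stood at 25.1 CPM (19.6 to 31.7) and 114 CPM (108 to 120), a ratio of 2.18 (1.84 to 2.55). Cxcl10 stood at 691 CPM (660 to 722) and 1890 CPM (1867 to 1913), a ratio of 1.45 (1.39 to 1.52). Cxcl11 stood at 56.6 CPM (48.1 to 66.2) and 264 CPM (256 to 273), a ratio of 2.22 (1.99 to 2.46). The intervals of the libraries did not overlap for any of the 3. Higher by at least 1.5-fold were 3 of the 3 ligands, beside 17.5% of the 9202 genes with at least 20 UMIs in this class, whose median ratio was −0.30.

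After each cell was thinned to 1000 UMIs, to set depth aside, 16.6% of 1466 sgVC neutrophil-like cells (interval 14.8 to 18.7%) had a Cxcl10 UMI, as did 37.7% of 4663 from sgCPT1A (interval 36.3 to 39.1%), with 331 and 461 shallower cells left out. Without thinning the shares were 18.8% and 48.5%, at median depths of 1461 and 2628.5 UMIs. For Cxcl11 the thinned shares were 2.93% and 12.2%, and for Cxcl9 1.16% and 3.47%. In T-like cells, which hold almost none of Cxcl9 and Cxcl11, the thinned shares were 0.256% and 0% for Cxcl9 (0 of 516 cells, which allows a share of up to 0.581%) and 0.128% and 0.775% for Cxcl11. The neutrophil-like shares thus lay above those of T-like cells for both genes.

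Without thinning, Cxcl10 was seen in 337 and 2487 neutrophil-like cells and Cxcl9 in 26 and 272. Cxcl10 was not evenly spread. In sgCPT1A the 10% of neutrophil-like cells richest in it held 67.4% of its UMIs, and in sgVC the same part held a larger share. No single neutrophil-like cell of sgCPT1A had more than 67 of the 1560 Cxcl9 UMIs, 175 of the 25891 Cxcl10 UMIs or 44 of the 3623 Cxcl11 UMIs. Among the thinned sgCPT1A cells 567 had a Cxcl11 UMI, and 77.4% of these also had Cxcl10, against 32.2% of the cells without Cxcl11. Of 162 cells with Cxcl9, 72.8% had Cxcl10 and 37.0% had Cxcl11, against 36.4% and 11.3% of cells without Cxcl9. All 3 ligands were seen together in 1.18% of cells. In sgVC 65.1% of 43 Cxcl11 cells had Cxcl10, against 15.2% of the rest. The ligands therefore met in the same cells more often than in other cells of the class in both libraries, as a description of counts with no test.

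The neutrophil-like cells formed 5 clusters that the libraries filled differently. The cluster led by Rsad2, Ifit2 and Ifit1, genes induced by type I interferon, held 39 and 455 cells and the highest ligand levels. Cxcl10 stood there at 4759 CPM (4223 to 5345) and 6139 CPM (6001 to 6279), and Cxcl11 at 701 CPM (506 to 948) and 997 CPM (942 to 1054). Cxcl9 had no UMI in sgVC and stood at 270 CPM in sgCPT1A. The 4 genes took no part in the clustering, but other interferon-induced genes did, so a high ligand level there is a description.

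Most sgVC neutrophil-like cells (1497) lay in the cluster led by Retnlg, Cstdc5 and Wfdc17, where 314 sgCPT1A cells also lay. In that cluster Cxcl10 stood at 525 and 885 CPM, Cxcl11 at 42.9 and 116 CPM and Cxcl9 at 27.6 and 58.9 CPM, each higher in sgCPT1A with intervals that did not overlap. Most sgCPT1A cells lay in clusters led by Il1a, Ccl3 and Cxcl2 (165 and 1792 cells), by Lrg1, Cxcr2 and Il1r2 (62 and 1487) and by Wfdc21, Ccl3 and Chil1 (34 and 1076). In these 3, Cxcl11 stood between 30.6 and 46.1 CPM in sgVC, on 12, 4 and 2 UMIs, and between 156 and 232 CPM in sgCPT1A. The count of 2 lies within the 3 that a count of 0 was read as allowing, so the sgVC levels are poorly measured. Cxcl10 did not follow one direction there: it stood at 684 and 1444 CPM, at 1544 and 1989 CPM, and at 1192 and 898 CPM.

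With both libraries weighted to the sgCPT1A mix of clusters, an alternative added after the data were seen, the ratio of Cxcl10 was 0.43, that of Cxcl11 1.44 and that of Cxcl9 3.24. These values lean on the small sgVC clusters, and the part of the cluster mix in the unweighted ratios was not tested further. Macrophage markers, 8 of 8 detected, summed to 74.2 and 73.7 CPM in neutrophil-like cells, against 8611 and 7561 CPM in monocyte/macrophage-like cells. Fibroblast markers, 6 of 6 detected, summed to 73.5 and 265 CPM there, and their part in the result was not tested.

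**Figure D2:**
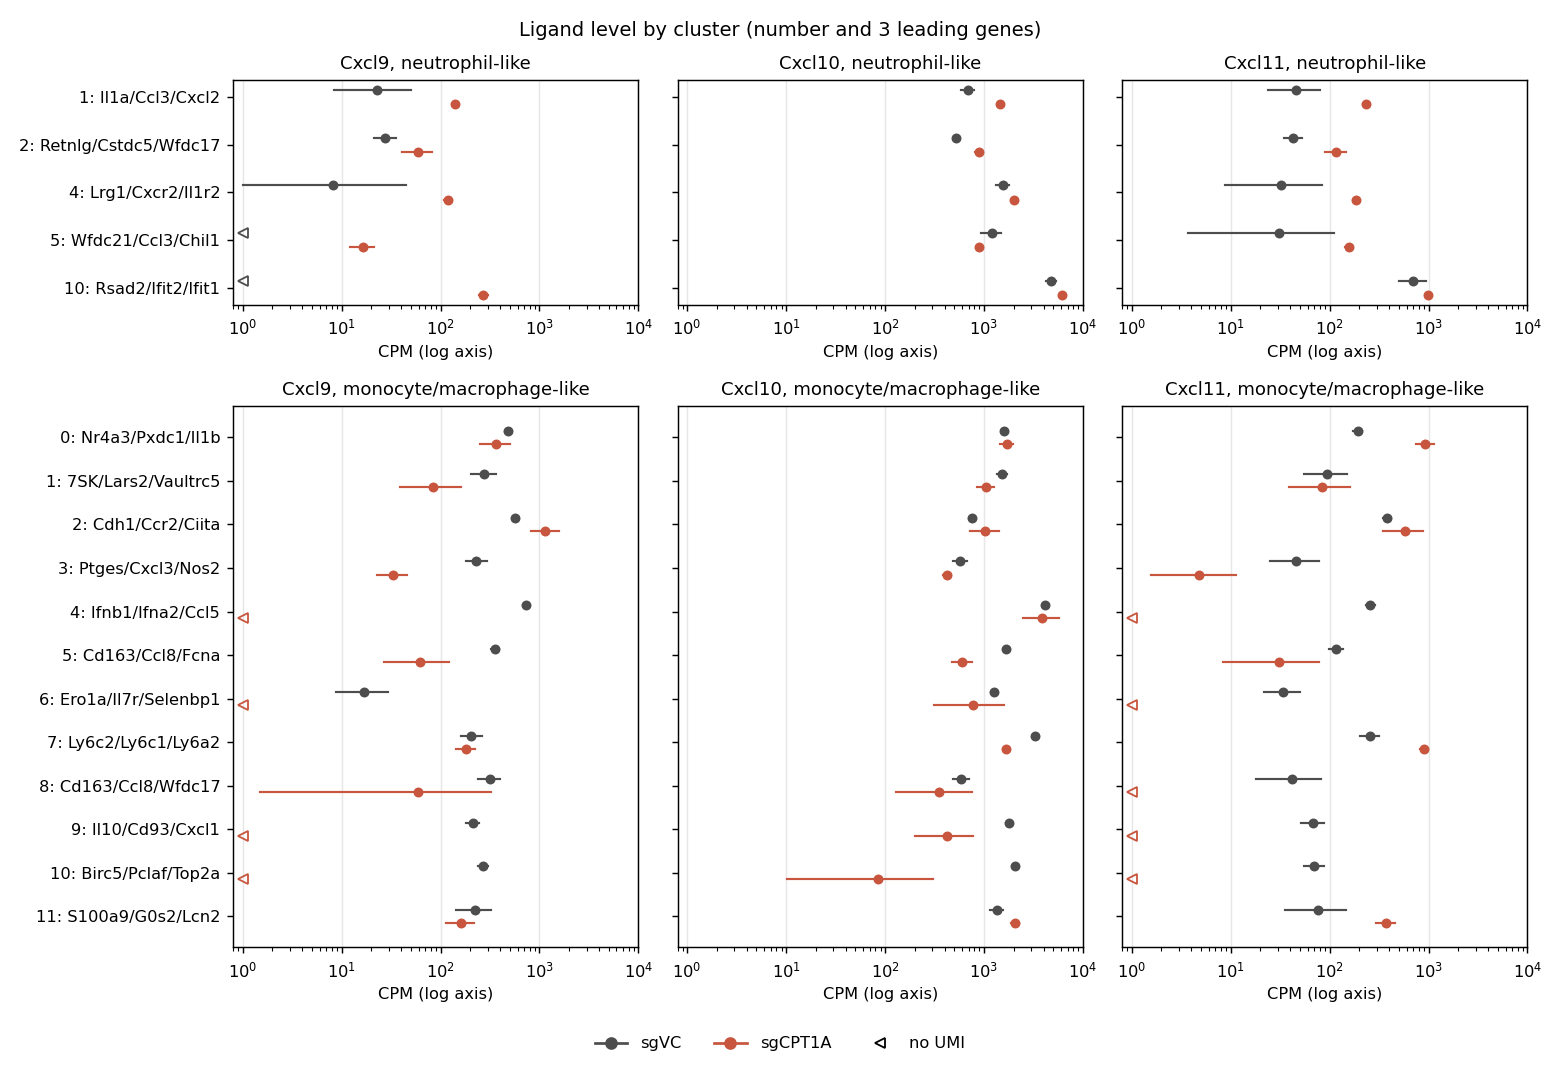
Level of each ligand (CPM, log axis) in the clusters of neutrophil-like cells (upper row) and the sub-clusters of monocyte/macrophage-like cells (lower row), with exact Poisson 95% intervals over counts and open triangles at the axis edge where no UMI was seen. The interferon-led neutrophil-like cluster has the highest Cxcl10 and Cxcl11 of the upper row in both libraries. Cxcl11 lies higher in sgCPT1A in all 5, but 3 of these rest on 12, 4 and 2 sgVC UMIs.

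In monocyte/macrophage-like cells Cxcl9 and Cxcl10 were lower in sgCPT1A and Cxcl11 was higher. Macrophages clear debris and present antigen, and are known interferon gamma targets. The class held 1388 and 305 cells. Cxcl9 stood at 406 CPM (393 to 419) and 113 CPM (99.3 to 128), a ratio of −1.85 (−2.04 to −1.66). Cxcl10 stood at 1923 CPM (1895 to 1951) and 973 CPM (932 to 1016), a ratio of −0.98 (−1.05 to −0.92). Cxcl11 stood at 173 CPM (165 to 182) and 283 CPM (261 to 306), a ratio of 0.71 (0.57 to 0.84). Cxcl9 and Cxcl10 were lower by at least 1.5-fold beside 25% of 11121 genes, and Cxcl11 was higher beside 15.2%.

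Cxcl11 here rested in part on 1 sgCPT1A cell, which held 162 of its 614 UMIs, and the ratio was 0.31 without the top cell of each library. Different sub-clusters held most of the class in the 2 libraries. Neutrophil markers, 7 of 7 detected, summed to 800 and 3374 CPM in the class. Without the sub-clusters left unnamed for their neutrophil genes the ratios were −1.10 for Cxcl9, −0.58 for Cxcl10 and 1.71 for Cxcl11. The monocyte-like sub-cluster led by Ly6c2 stayed in, although 3 neutrophil markers were raised in it as well. It held 399 of the 614 sgCPT1A Cxcl11 UMIs, among them the 162 of that 1 cell. With coarser clusters (Leiden resolution 0.5) the Cxcl9 ratio was −0.96. Thinned to 1000 UMIs, 49.8% of sgVC and 37.6% of sgCPT1A cells had a Cxcl10 UMI, and 17.8% and 4.66% a Cxcl9 UMI.

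The sub-clusters differed in which ligand they held. A macrophage-like sub-cluster led by Ifnb1, Ifna2 and Ccl5, itself rich in interferon transcripts, had 164 cells in sgVC and 2 in sgCPT1A. In sgVC it held Cxcl10 at 4106 CPM (4003 to 4211), seen in 94.5% of its cells, and Cxcl9 at 732 CPM (689 to 777), the highest Cxcl9 of the sgVC sub-clusters. A monocyte-like sub-cluster led by Cdh1, Ccr2 and Ciita, the last being the master regulator of MHC class II genes, had 164 and 6 cells and in sgVC the highest Cxcl11, 384 CPM (351 to 419), with Cxcl9 at 570 CPM. These sub-clusters were almost empty in sgCPT1A.

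The largest sgCPT1A sub-cluster, with 50 and 116 cells, was led by Ptges, Cxcl3 and Nos2, carried neutrophil genes and was left unnamed. It was poor in all 3 ligands, with Cxcl9 at 231 and 32.8 CPM, Cxcl10 at 574 and 422 CPM and Cxcl11 at 46.2 and 4.82 CPM. The one named sub-cluster with similar numbers of cells in both libraries was monocyte-like and led by Ly6c2 (65 and 66 cells). There Cxcl9 stood at 206 and 180 CPM with overlapping intervals, Cxcl10 at 3293 and 1661 CPM, and Cxcl11 at 255 and 899 CPM, 162 of the 399 sgCPT1A UMIs being in 1 cell.

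Dendritic-like cells held each ligand in both libraries, and the size of the differences varied with the processing. Dendritic cells carry antigen to lymph nodes and prime T cells, and 210 and 61 were kept. Cxcl10 stood at 1015 CPM (971 to 1060) and 1065 CPM (992 to 1143), a ratio of 0.07 (−0.05 to 0.19). Cxcl9 stood at 290 and 450 CPM, a ratio of 0.63 (0.43 to 0.83), but 200 of the 328 sgCPT1A UMIs were in 1 cell and the ratio was −0.62 without the top cell of each library. Cxcl11 stood at 105 and 233 CPM, a ratio of 1.15 (0.85 to 1.45). With coarser clusters (Leiden resolution 0.5) the ratios were −1.37 for Cxcl10, −0.17 for Cxcl9 and 0.54 for Cxcl11. Higher by at least 1.5-fold were Cxcl9, Cxcl11 and, on 18 and 11 UMIs, Cxcr3, beside 15.9% of 7939 genes. Neutrophil markers summed to 546 and 2058 CPM in the class, with 7 of 7 and 6 of 7 detected and Retnlg at 0 in sgCPT1A, and their part was not tested.

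Within the class the ligands had different homes. Xcr1-led conventional dendritic-like cells (41 and 11) held little Cxcl10, at 224 and 193 CPM, and Cxcl9 at 280 and 116 CPM. In sgVC the highest Cxcl10 was in a mature dendritic-like sub-cluster led by Tnfsf4 (25 cells), at 2296 CPM (2110 to 2493), where Cxcl9 was at 73.4 CPM. An unnamed sub-cluster with monocyte genes (30 and 19 cells) had a like Cxcl10 level in both libraries, 2073 and 2091 CPM. A sub-cluster of 42 sgVC cells led by Mmp12, with macrophage genes and left unnamed, had Cxcl9 at 717 CPM (641 to 799), seen in 69.0% of its cells.

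Fibroblast-like cells had all 3 ligands at lower levels in sgCPT1A. Fibroblasts build the collagen matrix, and 400 and 514 were kept, most in 1 cluster in both libraries (382 and 438 cells). Cxcl9 stood at 312 CPM (298 to 326) and 110 CPM (105 to 116), a ratio of −1.50 (−1.60 to −1.39). Cxcl10 stood at 1373 CPM (1344 to 1403) and 596 CPM (583 to 610), a ratio of −1.20 (−1.25 to −1.16). Lower by at least 1.5-fold were 3 of 3 ligands, beside 13.5% of 13239 genes.

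Single cells weighed on the low ligands here. In sgCPT1A 1 fibroblast-like cell held 448 of the 1369 Cxcl9 UMIs, and the ratio was −1.97 without the top cells. Cxcl11 was rare, at 17.3 CPM (14.1 to 21.0) and 4.12 CPM (3.06 to 5.41), a ratio of −2.07. Of the sgCPT1A value, 91.1% equalled the estimate for RNA freed from other cells, so that level is close to background, and the ratio was −0.70 with cells classed by their own markers. In sgVC 53 of the 104 UMIs were in 1 cell, and the ratio was −1.36 without the top cells and −5.45 with free RNA subtracted. Thinned to 1000 UMIs, 39.4% and 27.7% of cells had a Cxcl10 UMI. Without thinning the shares were 63.0% and 67.1%, at median depths of 14586 and 24472.5 UMIs, an order that goes against the CPM.

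Pericyte or smooth muscle-like cells, which wrap vessels, were few (51 and 73) but had the highest Cxcl9 level of any class in sgVC. The cluster was led by Rgs5, and it also showed endothelial markers. Cxcl9 stood at 1256 CPM (1176 to 1340) and 310 CPM (280 to 342), a ratio of −2.02 (−2.19 to −1.85). In sgVC 315 of the 926 UMIs were in 1 cell, and the ratio was −1.61 without the top cells and −1.36 with cells classed by their own markers. Cxcl10 stood at 1552 and 1500 CPM, a ratio of −0.05 (−0.16 to 0.06). Cxcl11 stood at 334 and 27.3 CPM, a ratio of −3.61 (−4.17 to −3.10) that was −0.06 with cells classed by their own markers. Lower by at least 1.5-fold were 2 of 3 ligands, and higher 0 of 3, beside 18.6% and 22.9% of 8714 genes. Fibroblast markers summed to 2451 and 11004 CPM (5 of 6 detected in sgVC, with Lum at 0, and 6 of 6 in sgCPT1A) and tumour markers to 575 and 25.0 CPM (5 of 5, and 3 of 5 with Spint1 and Wfdc2 at 0). Macrophage markers summed to 47.5 and 302 CPM (5 of 8 with Adgre1, Ms4a7 and Trem2 at 0, and 4 of 8 with C1qa, C1qb, C1qc and Trem2 at 0) and neutrophil markers to 270 and 551 CPM (5 of 7 with Cxcr2 and Retnlg at 0, and 7 of 7). Their part was not tested.

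**Figure D3:**
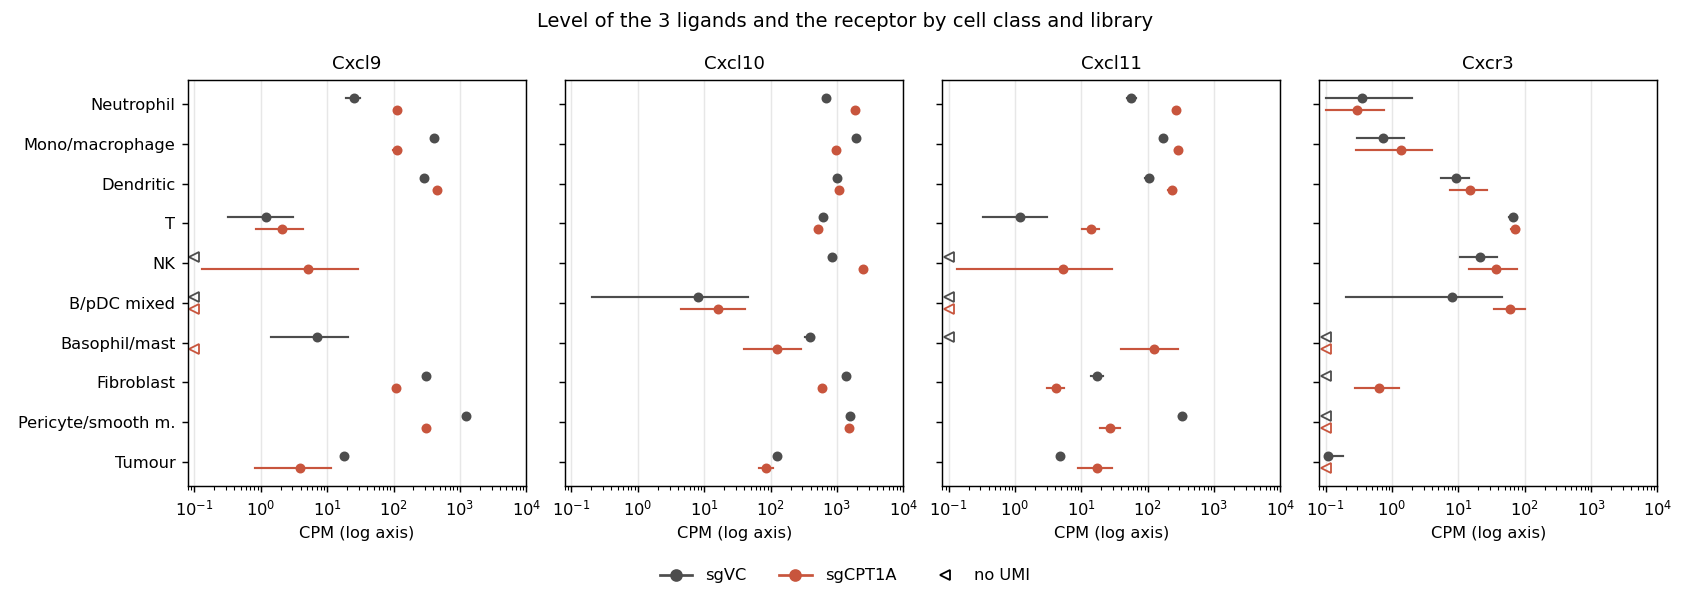
Level of Cxcl9, Cxcl10, Cxcl11 and Cxcr3 (CPM, log axis, 1 panel per gene) by cell class in each library, with exact Poisson 95% intervals over counts, cut at the axis edge, and open triangles where no UMI was seen. Cxcl10 lies over 100 CPM in most classes, Cxcl9 drops to a few CPM or none and Cxcl11 to 13.8 CPM or less in T-like and NK-like cells, and Cxcr3 shows the reverse pattern.

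T-like cells held Cxcl10 but almost no Cxcl9 or Cxcl11. Cxcl10 stood at 619 CPM (592 to 646) and 521 CPM (497 to 546) in 855 and 550 cells, a ratio of −0.25 (−0.34 to −0.15), which was 0.14 with the doublets kept. Cxcl9 had 4 and 7 UMIs, and Cxcl11 4 and 46. Per 100 Cxcl10 UMIs there were 0.193 and 0.403 Cxcl9 UMIs in T-like cells, against 19.1 and 9.68 in the whole libraries. The lowest such value among the neutrophil, macrophage, dendritic, fibroblast and pericyte classes was 3.63, in sgVC neutrophil-like cells. Single clusters went lower. In sgVC the interferon-led neutrophil-like cluster had 0 Cxcl9 and 285 Cxcl10 UMIs, and the Lrg1-led one 1 and 190. In sgCPT1A the interferon-led cluster had 333 and 7558. The estimate for free RNA accounted for 0.690% and 1.24% of the Cxcl10 level of T-like cells. It is the lowest over several marker panels, here that of fibroblast genes, so the other panels give higher estimates. The part of RNA from neutrophil-like and other cells in this Cxcl10 level was not tested.

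Most Cxcl11 of T-like cells in sgCPT1A came with neutrophil genes. A sub-cluster of 8 and 48 lymphocytes led by Cxcl2, S100a9 and S100a8 was left unnamed. It held 37 Cxcl11 UMIs in sgCPT1A, and its Cxcl10 stood at 143 and 1107 CPM. Neutrophil markers, 7 of 7 detected, summed to 294 and 2241 CPM over all T-like cells. Among Cxcl10, Cxcl11 and Cxcr3 in T-like cells, Cxcl11 alone was higher by at least 1.5-fold, beside 13.5% of 10146 genes, and its ratio is not read further.

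Among lymphocyte sub-clusters, Cxcl10 was highest outside the CD8 and conventional CD4 T-like cells. It stood at 2189 CPM (1977 to 2418) and 3124 CPM (2859 to 3406) in NK-like cells (62 and 30), and at 1624 and 1799 CPM in gamma delta T or innate lymphoid-like cells (35 and 19). An unnamed sub-cluster led by Myo6, Tent5a and Cysltr1, with Ifit1 and Il4 among its leading genes (50 and 26 cells), had 2871 and 1657 CPM. Regulatory T-like cells, which restrain other T cells, had 975 and 1187 CPM. CD8 T-like cells had 374 and 335 CPM and conventional CD4 T-like cells 252 and 111 CPM. The naive or resting T-like sub-cluster had 1362 CPM (1195 to 1546) in sgVC and 283 CPM (236 to 336) in sgCPT1A. The NK-like, gamma delta or innate lymphoid-like and Myo6-led sub-clusters were thus the highest 3 in both libraries. In sgCPT1A 1 cell held 183 of the 513 Cxcl10 UMIs of the NK-like sub-cluster. Another cell held 127 of the 171 of the gamma delta T or innate lymphoid-like one, whose place among the highest 3 in sgCPT1A rests on that cell.

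Cxcr3 lay mostly in T-like cells in both tumours and stood at close levels there. In T-like cells it was at 66.8 CPM (58.3 to 76.1) and 71.1 CPM (62.4 to 80.8), on 224 and 237 UMIs, a ratio of 0.09 with an interval of −0.18 to 0.36. That interval leaves room for a difference in either direction, and the ratio ran from −0.33 with cells weighted equally to 0.74 with the doublets kept. The share of T-like cells with a Cxcr3 UMI was 18.5% (15.9 to 21.3%) in sgVC and 21.3% (17.9 to 24.9%) in sgCPT1A, at median depths of 2873 and 4920 UMIs. Thinned to 1000 UMIs the shares were 7.31% (5.58 to 9.37%) and 5.04% (3.32 to 7.30%). In fibroblast-like cells, which should lack the gene, it was seen in 0 of 400 cells, which allows a share of up to 0.75%, and in 1.17% of 514 deeper cells. Neutrophil-like cells had 1 and 4 UMIs in all (0.358 and 0.292 CPM) and monocyte/macrophage-like cells 7 and 3.

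CD8 T-like cells, the cytotoxic killers, had Cxcr3 at 103 CPM (81.1 to 130) and 115 CPM (83.8 to 155). Their share of the lymphocytes' Cxcr3 UMIs was 31.5% and 18.0%, and their share of the lymphocytes 21.6% and 9.79%. Dividing lymphocytes, led by histone genes and Birc5, had 58.1 CPM (43.9 to 75.5) and 90.4 CPM (67.5 to 119). They held 23.8% and 21.3% of the Cxcr3 UMIs with 11.1% and 4.64% of the cells, but being deep they also held 24.8% and 16.3% of all lymphocyte UMIs, against 18.5% and 10.8% for CD8 T-like cells. In sgVC their share of Cxcr3 was thus no larger than their share of RNA. An unnamed sub-cluster of T-like cells led by the small nuclear RNA 7SK (75 and 64 cells) had 97.1 and 118 CPM. Another with fibroblast genes (37 and 131 cells), also unnamed, had 154 CPM (61.9 to 317) on 7 UMIs and 57.1 CPM (35.4 to 87.3).

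Conventional CD4 T-like cells, led by the cytokine genes Il2, Ccl1 and Il13, had 33.8 CPM (19.3 to 54.9) and 52.5 CPM (34.0 to 77.5). Their sgVC interval lay below that of CD8 T-like cells, and so did the sgCPT1A one. Naive or resting T-like cells had 79.5 CPM (43.4 to 133) and 50.5 CPM (32.0 to 75.7), and regulatory T-like cells 42.1 CPM (21.0 to 75.3) and 35.5 CPM (11.5 to 82.9). NK-like cells had 44.9 CPM (19.4 to 88.5) and 36.5 CPM (13.4 to 79.5), on 8 and 6 UMIs. Among these 3 and the CD4 T-like cells the intervals overlap in each library, so their order is not told apart. Gamma delta T or innate lymphoid-like cells had 0 UMIs in 35 sgVC cells and 2 in 19 sgCPT1A cells.

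Among T-like and NK-like cells gated on their own UMIs, CD8 cells had the highest value in both libraries. The CD8, CD4 and Foxp3 gates also required a Cd3 gene. The CD8 gate left out cells with Cd4 or Foxp3, and the CD4 and Foxp3 gates left out cells with Cd8a or Cd8b1. No gate was met by 376 and 226 cells, which had Cxcr3 at 59.9 and 55.4 CPM on 62 and 47 UMIs. Cells with Cd8a or Cd8b1 had Cxcr3 at 90.6 and 91.7 CPM (208 and 68 cells), cells with Cd4 and no Foxp3 at 55.3 and 72.5 CPM (260 and 242), and cells with Foxp3 at 45.4 and 73.0 CPM (57 and 25). Cells with Ncr1 and no Cd3 had 8.42 and 8.47 CPM, on 2 and 1 UMIs in 36 and 21 cells. The CD8 interval (71.6 to 113 CPM) lay above that of CD4 cells without Foxp3 (43.7 to 69.1 CPM) in sgVC, and the intervals overlapped in sgCPT1A. The NK values are lower under this gate than in the NK-like sub-cluster, and rest on these few UMIs.

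**Figure D4:**
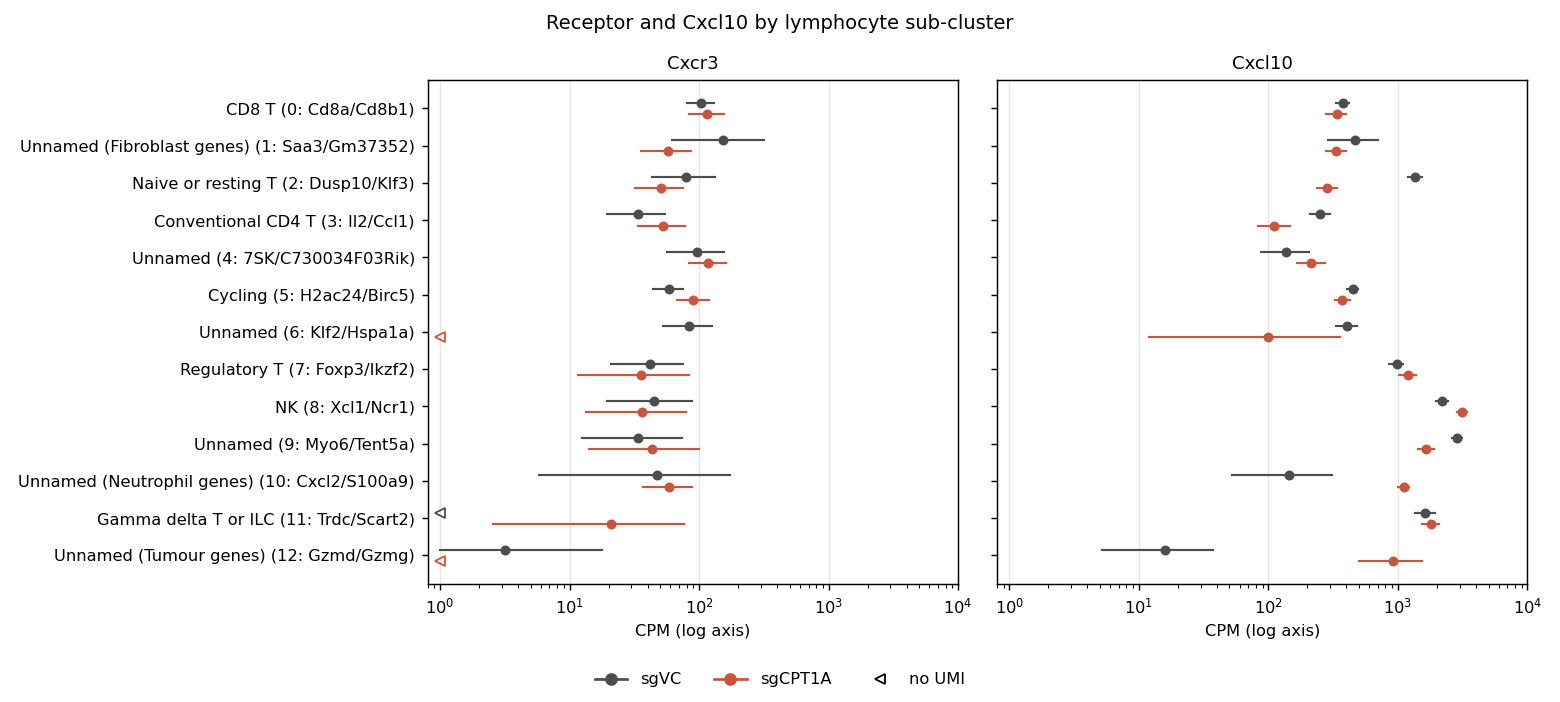
Level of Cxcr3 (left) and Cxcl10 (right) in CPM on a log axis for each sub-cluster of T-like and NK-like cells, with number and leading genes, and exact Poisson 95% intervals over counts. Triangles mark sub-clusters with no UMI. CD8 T-like cells have Cxcr3 at 103 and 115 CPM and a low Cxcl10, and NK-like cells have a lower Cxcr3 (44.9 and 36.5 CPM) with a high Cxcl10 (2189 and 3124 CPM).

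Outside the lymphocytes Cxcr3 marked a subset of dendritic-like cells. Of the class's 18 and 11 Cxcr3 UMIs, 17 and 11 lay in the 52 and 9 cells with Xcr1 or Clec9a, genes of the conventional dendritic cells that cross-present antigen to CD8 T cells. Their level was 28.0 and 80.7 CPM, a ratio of 1.53 (0.29 to 2.71) that rests on 9 sgCPT1A cells, and it was 0.732 CPM and none in the other 158 and 52. T-cell markers, 6 of 6 detected, summed to 12.7 and 52.1 CPM in the class, and their part was not tested.

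The genes whose levels were most like those of each member were ranked over 15 units of class and library with at least 50 cells, by Pearson's r of log2(CPM + 1) among 13223 genes. The units share libraries and depth, so r is a description. For Cxcl9 they were Slc66a2 (0.937), Clic4 (0.936), Crybg3 (0.926), BC028528 (0.896) and Ltbr (0.891), the last encoding the lymphotoxin beta receptor. For Cxcl10 they were Gm5617 (0.865), Bambi (0.855), Fgl2 (0.813), Ccdc71l (0.803) and Gngt2 (0.802). For Cxcl11 they were Batf2 (0.937), Sh3tc1 (0.901), Fam241a (0.879), Znfx1 (0.873) and Dglucy (0.873), of which Batf2 and Znfx1 are interferon-induced.

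For Cxcr3 the most similar included Dkkl1 (0.980), Il12rb2 (0.971), Fcho1 (0.961) and Klrd1 (0.946). Il12rb2 encodes the inducible chain of the interleukin-12 receptor of type 1 T cells, and Klrd1 is the NK receptor chain CD94. Among the members r was 0.778 for Cxcl9 with Cxcl11, 0.618 for Cxcl10 with Cxcl11 and 0.580 for Cxcl9 with Cxcl10. That of Cxcr3 with the ligands lay between −0.558 and −0.110.

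The signals that induce the ligands were read from lists of pathway genes. Ifng, the type II interferon, was made by T-like cells at 781 and 694 CPM, a ratio of −0.17 (−0.25 to −0.09). Ifnb1, a type I interferon, stood in monocyte/macrophage-like cells at 307 and 32.3 CPM, a ratio of −3.25 (−3.61 to −2.91), and in dendritic-like cells at 203 and 103 CPM. In fibroblast-like cells it stood at 34.6 CPM in sgVC and had 1 UMI in sgCPT1A, a ratio of −8.74 (−14.05 to −6.25). Counts below are of list genes with at least 20 UMIs in the class that were at least 1.5-fold higher or lower in sgCPT1A, with the list's median ratio beside that of all genes.

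In neutrophil-like cells, with an all-gene median of −0.30 and 17.5% of genes higher and 36% lower, the type I interferon route had 4 of 8 genes higher and 1 lower (median 0.47). Stat2, a subunit of the factor that binds the interferon-stimulated response element, stood at 84.9 and 175 CPM and Irf7 at 237 and 404 CPM. The type II route had 0 of 8 higher and 2 lower (median 0.09). Its receptor chain Ifngr1 stood at 101 and 39.5 CPM and Irf1 at 1422 and 1782 CPM. The TNF and NF-kB route had 3 of 7 higher and 0 lower (median 0.58), with Tnf at 1165 and 2435 CPM. Among genes induced by interferon gamma, 2 of 8 were higher and 0 lower (median 0.44), Gbp5 at 213 and 661 CPM and Irgm1 at 344 and 742 CPM.

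In monocyte/macrophage-like cells, with an all-gene median of −0.11 and 15.2% of genes higher and 25% lower, the type I route had 4 of 8 genes higher and 1 lower (median 0.50), with Irf7 at 155 and 567 CPM. The type II route had 0 of 9 higher and 1 lower (median 0.18). The TNF and NF-kB route had 2 of 7 higher and 0 lower (median 0.09). Interferon gamma-induced genes were split, 4 of 9 higher and 2 lower (median 0.58). Nos2, the inducible nitric oxide synthase, stood at 51.8 and 371 CPM and the checkpoint ligand Cd274 at 176 and 353 CPM, while Ciita stood at 55.4 and 25.8 CPM and Iigp1 at 151 and 103 CPM.

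In fibroblast-like cells, with an all-gene median of −0.02 and 16.1% of genes higher and 13.5% lower, interferon gamma-induced genes were lower in 5 of 8 and higher in 1 (median −0.84). Gbp4 stood at 53.6 and 12.5 CPM, Igtp at 73.2 and 24.8 CPM and Iigp1 at 375 and 199 CPM, while Nos2 stood at 101 and 190 CPM. The type II route had 1 of 9 higher and 1 lower (median −0.30), the type I route 1 of 8 higher and 1 lower (median 0.07), and the TNF and NF-kB route 2 of 7 in each direction (median −0.20). Nfkb1, a subunit of the factor that binds the kB element, stood at 302 and 152 CPM. The lower ligand levels in this class thus stood beside lower levels of 5 of 8 other interferon gamma-induced genes and a higher level of Nos2. A shared cause was not tested. Neutrophil markers summed to 169 and 673 CPM in it (6 of 7 detected in sgVC, with Cxcr2 at 0, and 7 of 7 in sgCPT1A) and tumour markers, 5 of 5 detected, to 210 and 10.8 CPM, and their part was not tested.

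In T-like cells, with an all-gene median of −0.04, 5 of 8 interferon gamma-induced genes were higher and 0 lower (median 0.73), Gbp2 at 45.9 and 103 CPM. Over all genes 13.5% were higher and 14% lower in this class, and the neutrophil markers given above differed as well (294 and 2241 CPM). Their part was not tested. The type II route had 1 of 9 higher, the type I route 3 of 8 and the TNF and NF-kB route 0 of 7, none lower (medians −0.17, 0.43 and 0.28). Of 9 type 1 lymphocyte genes, 0 were higher and 1 lower (median 0.13). The granzyme gene Gzmb stood at 1461 and 931 CPM and Stat4, which relays interleukin-12, at 59.0 and 85.2 CPM. Of 9 other homing receptors, 3 were higher and 0 lower (median 0.28), with Cxcr6 at 235 and 318 CPM, Cxcr4 at 87.6 and 131 CPM and Ccr2 at 246 and 245 CPM.

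Of the genes that remove or bind the ligands, 1 to 4 had enough UMIs in each class. Lower were 2 of 3 in pericyte or smooth muscle-like, 1 of 2 in neutrophil-like and 1 of 4 in fibroblast-like cells, beside 18.6%, 36% and 13.5% of all genes. Higher were 2 of 3 in monocyte/macrophage-like, 1 of 4 in fibroblast-like and 1 of 1 in dendritic-like cells, beside 15.2%, 16.1% and 15.9%. With so few genes these counts are not told apart from the shares of all genes. Dpp4, a protease that trims the ligands, stood at 19.5 and 45.4 CPM in fibroblast-like, 26.5 and 25.8 CPM in T-like and 65.3 and 111 CPM in dendritic-like cells. Ackr3, a scavenging receptor for CXCL11, stood at 317 and 362 CPM in fibroblast-like cells. Pf4, a platelet chemokine that can also bind CXCR3, stood at 2051 and 4277 CPM in monocyte/macrophage-like cells. Of the cytokines that drive type 1 T cells, 2 of 6 were higher and 0 lower in neutrophil-like cells (median 0.42), with Ebi3 at 31.5 and 81.4 CPM, and 1 of 5 and 0 in monocyte/macrophage-like cells (median 0.48), beside 17.5% and 15.2% of all genes higher in these classes. Il12b, a chain of interleukin-12, stood at 156 and 83.6 CPM in dendritic-like cells, a ratio of −0.90 (−1.32 to −0.50).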

How the data were processed

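The data were single-cell counts from whole 4T1 tumours, 1 library labelled sgVC and 1 labelled sgCPT1A with files. The deposited values were UMI counts per gene and barcode (10x 3′ chemistry), made by the authors with Cell Ranger 7.1.0 per the file headers, on GRCm38 per the submitters' processing notes. Which annotation release was used is not given in the sources used here.

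Barcodes with fewer than 200 genes or over 20% mitochondrial UMIs were removed. The libraries held 155948212 and 35557125 UMIs. Cells were clustered with scanpy 1.11.5 (Leiden resolution 1) without the 4 members, Rn18s, Rn18s-rs5, Malat1 and Xist, and named from 21 marker lists. Doublets called by scrublet were left out of sgVC, and the caller marked 0.0148% of sgCPT1A, which is taken as not having worked.

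Counts were summed per class and library. Intervals were exact Poisson (CPM), Clopper-Pearson (shares) and exact conditional binomial (ratios), at 95%, and a count of 0 was read as allowing 3. With 1 library per group there was no test, and UMIs within a cell are not independent. On counts simulated with counting error alone, the ratio intervals covered 95.9 to 96.2% of unchanged genes. That checks the calculation and says nothing of the spread between cells or tumours. In the same simulation 6.40 to 15.6% of unchanged genes, by class, differed by at least 1.5-fold. Genes named were the members, the 5 most like each member (among genes with at least 200 UMIs), and from each of 8 pathway lists, per class, the 3 highest in level and the 3 with the largest ratio among those with at least 50 UMIs. Some genes that this rule names are not reported here. Members and lists were chosen with earlier results of these data known. Alternatives changed the filters, doublets, clustering, cell classes, weighting, top cells, free RNA and scaling. Free RNA was estimated per class as the lowest of the values from neutrophil, fibroblast and tumour marker genes.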

Additional observations from a re-analysis of the deposited data

How the results depend on the processing

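No paired analysis was possible because each group had 1 library. Of 271 alternative values for 35 results, 188 lay close to the reported value, 80 moved beyond its counting error and 3 changed sign where the interval of the reported ratio excluded 0. These 3 were Cxcl9 in dendritic-like cells, −0.17 with Leiden resolution 0.5 and −0.62 without the top cell of each library, and Cxcl10 in T-like cells, 0.14 with doublets kept. Among ratios whose interval included 0, the sign also turned for Cxcl10 in dendritic-like cells (down to −1.37 with resolution 0.5), Cxcl10 in pericyte or smooth muscle-like cells (0.02 by own markers) and Cxcr3 in T-like cells (below). The cause was not tested for any moved value.

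For neutrophil-like cells the Cxcl10 ratio was 1.29 with at least 500 genes, 1.56 with cells weighted equally, 1.75 scaled by the median gene, 1.29 without the interferon-led cluster and 0.43 at one cluster mix. Cxcl11 was 2.52 by the median gene and 1.44 at one mix, and Cxcl9 3.24 at one mix. For monocyte/macrophage-like cells Cxcl9 was −1.50 with doublets kept, −0.96 with Leiden resolution 0.5, −1.61 without the interferon-led sub-cluster and −1.10 without the sub-clusters with neutrophil genes. Cxcl10 was −1.11 with 500 genes, −0.77 with doublets, −0.78 with resolution 0.5, −0.62 by own markers, −0.68 with cells weighted equally, −1.08 without the top cells, −0.87 by the median gene, −0.66 without the interferon-led sub-cluster and −0.58 without those with neutrophil genes. Cxcl11 was 1.06 with doublets, 0.31 without the top cells, and 0.85 and 1.71 without the same sub-clusters. Cxcr3 in T-like cells was 0.74 with doublets kept and −0.33 with cells weighted equally.

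The sgVC macrophage share with doublets kept, resolution 0.5 and own markers was 41.9, 45.9 and 35.5% for Cxcl9, 38.3, 39.0 and 33.8% for Cxcl10, and 57.7, 60.0 and 49.6% for Cxcl11. The sgCPT1A neutrophil share was 37.2% for Cxcl9 and 62.9% for Cxcl10 with 500 genes. For Cxcl10 it was 65.0% with at most 10% mitochondrial UMIs, 60.7% by own markers and 64.7% with free RNA subtracted, and for Cxcl11 72.7% by own markers. Thinned to 2000 UMIs and not thinned, Cxcl10 was seen in 26.0 and 18.8% of sgVC and 47.7 and 48.5% of sgCPT1A neutrophil-like cells, and Cxcr3 in 13.3 and 18.5% of sgVC and 9.11 and 21.3% of sgCPT1A T-like cells. Gated cells gave Cxcr3 at 55.3 CPM for CD4 in sgVC, and at 8.42 and 8.47 CPM for NK.

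Each ratio compares 2 libraries and not 2 conditions. Classes of few cells, such as NK-like and dendritic-like cells in sgCPT1A, rest on few UMIs for Cxcr3.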

Other observations

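Basophil or mast-like cells (99 and 17), known for allergy mediators, had Cxcl10 at 386 and 124 CPM, and 115 of the 165 sgVC UMIs were in 1 cell. A cluster with B-cell markers (26 and 28 cells) that also held plasmacytoid dendritic genes had 1 and 15 Cxcr3 UMIs. Of these, 1 and 10 were in the 11 and 13 cells with Siglech and without Cd79a, at 17.7 and 87.7 CPM. The 14 and 13 cells with Cd79a and without Siglech had 0 and 5. Cxcl10 was nearly missing from that cluster, with 1 and 4 UMIs.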
